A study of Mus musculus with 6 samples.

Results

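Neuropeptide genes encode precursor proteins that neurons cut into short signalling peptides and release from dense-core granules. In the hypothalamus some of these peptides reach the pituitary through the portal blood and set the release of its hormones, while others act on neighbouring or distant neurons to steer feeding, arousal and the daily rhythm. A single neuron often makes several peptides beside a fast transmitter such as GABA or glutamate. The genes described here were 32 hypothalamic neuropeptide genes, chosen by their symbols among the 27998 genes of the count tables. Genes for oxytocin, vasopressin, corticotropin-releasing hormone, the opioid precursors and pro-opiomelanocortin were not among them and serve only as partners in the section on shared cells.

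Single cells were captured on the 10x Genomics platform from adrenals, pituitaries and a hand-cut block around the hypothalamic paraventricular nucleus (the extended PVN) of C57BL/6 mice, all 10 weeks of age. One group of mice was left unstressed as control, and the other underwent 21 days of chronic social defeat stress, in which a mouse is repeatedly subordinated by an aggressor. The 6 libraries, 1 for each tissue in each condition, were made from pools of 5 mice, brain and pituitary cells were freed with papain and adrenal cells with collagenase, and both suspensions of a tissue were loaded on the same chip. There were thus no replicates and no test between conditions: every ratio below compares 1 pool with 1 pool. Every interval is a 95% interval that covers only the counting of molecules or, for shares of cells, the counting of cells. None covers differences between mice or pools.

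After filtering, the PVN libraries held 3512 control and 3459 stress cells, with 1593 and 1580 cells named neuron-like from neuronal markers. The pituitary libraries kept 4944 and 4880 cells and the adrenal libraries 2161 and 2742. Any pair of libraries shared between 10 and 39 cell barcodes, at most 0.97% of the smaller library. The 9 neuron clusters were built without the 32 genes and without the partner peptides, so peptide levels can be compared between them. Cluster 19 expressed 6 of the 6 neurosecretory PVN markers, which include the peptide genes Oxt, Avp and Crh, and cluster 4 expressed 5 of them. Cluster 4 also expressed 2 markers of the ventromedial hypothalamus, and its leading genes were Pmch, Hcrt, Adcyap1, Cbln1 and Nxph4. It is thus not named as neurosecretory. Cluster 17 expressed 6 of 6 markers of the suprachiasmatic nucleus, the hypothalamic clock, and clusters 10, 14 and 18 expressed 3 of these each. Clusters 1, 5, 9, 10 and 18 expressed 5 GABA markers each and cluster 17 expressed 3. The glutamate transporter gene Slc17a6 was at 277 CPM (UMIs scaled to a total of 1000000 in each class or cluster) in cluster 4, 257 CPM in cluster 14 and 114 CPM in cluster 19. The dissected block thus held cells with suprachiasmatic markers beside those with PVN markers.

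RefSeq promoter windows, covering 250 bases before to 50 bases after a transcript start on GRCm38.p6, matched 26 of the 32 genes. Windows were searched on both strands for the full cAMP response element, TGACGTCA, and for the canonical E-box, CACGTG. No window of the 26 genes held both. The first motif was in the windows of 2 of the 26 genes, Sst and Cartpt, and in 2.03% of 27025 genes with a window. The second was in 4 of the 26 genes, Nmu, Tac1, Prok2 and Cck, and in 8.09% of all genes. A match is a description of the letters and not a binding site. Stretches of 100 bases are shown for the 2 genes that most often shared cells, Sst and Cartpt, and for Prok2, whose carriers all lay in the suprachiasmatic cluster. Capitals mark the motif, which lies at -48 to -41 in Sst, -112 to -105 in Cartpt and -135 to -130 in Prok2 relative to the RefSeq start.
Sst, minus strand, chr16:23890845-23890944: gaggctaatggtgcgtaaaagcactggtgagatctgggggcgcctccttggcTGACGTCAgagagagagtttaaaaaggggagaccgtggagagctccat
Cartpt, minus strand, chr13:99900736-99900835: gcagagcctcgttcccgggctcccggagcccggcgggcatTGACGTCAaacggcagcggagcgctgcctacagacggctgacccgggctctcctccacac
Prok2, minus strand, chr6:99726468-99726567: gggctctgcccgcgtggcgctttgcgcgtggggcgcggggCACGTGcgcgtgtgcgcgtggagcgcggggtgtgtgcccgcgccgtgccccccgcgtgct

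A cell was called a carrier of a gene when it held at least 10 of its UMIs, the molecular identifiers that count single RNA molecules. In the control library 477 of 1593 neuron-like cells, 29.9% (27.7 to 32.3, exact Clopper-Pearson), carried at least 1 of the 32 genes. In the stress library 402 of 1580 did, 25.4% (23.3 to 27.7). Of these carriers, 141 in the control and 109 in the stress library held 2 or more of the genes, 29.6% and 27.1% of the carriers. Carriers were deeper cells, with medians of 12985 and 13632 UMIs against 9760.5 and 9694 in neuron-like cells that carried none. The part of this depth in the carrier shares was not tested beyond thinning all cells to 2000 UMIs, which left 11.1% and 8.67% carriers. Over both libraries 18 of the 32 genes had 5 or more carriers, 6 had 1 to 4, and 8 had none.

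**Figure D1:**
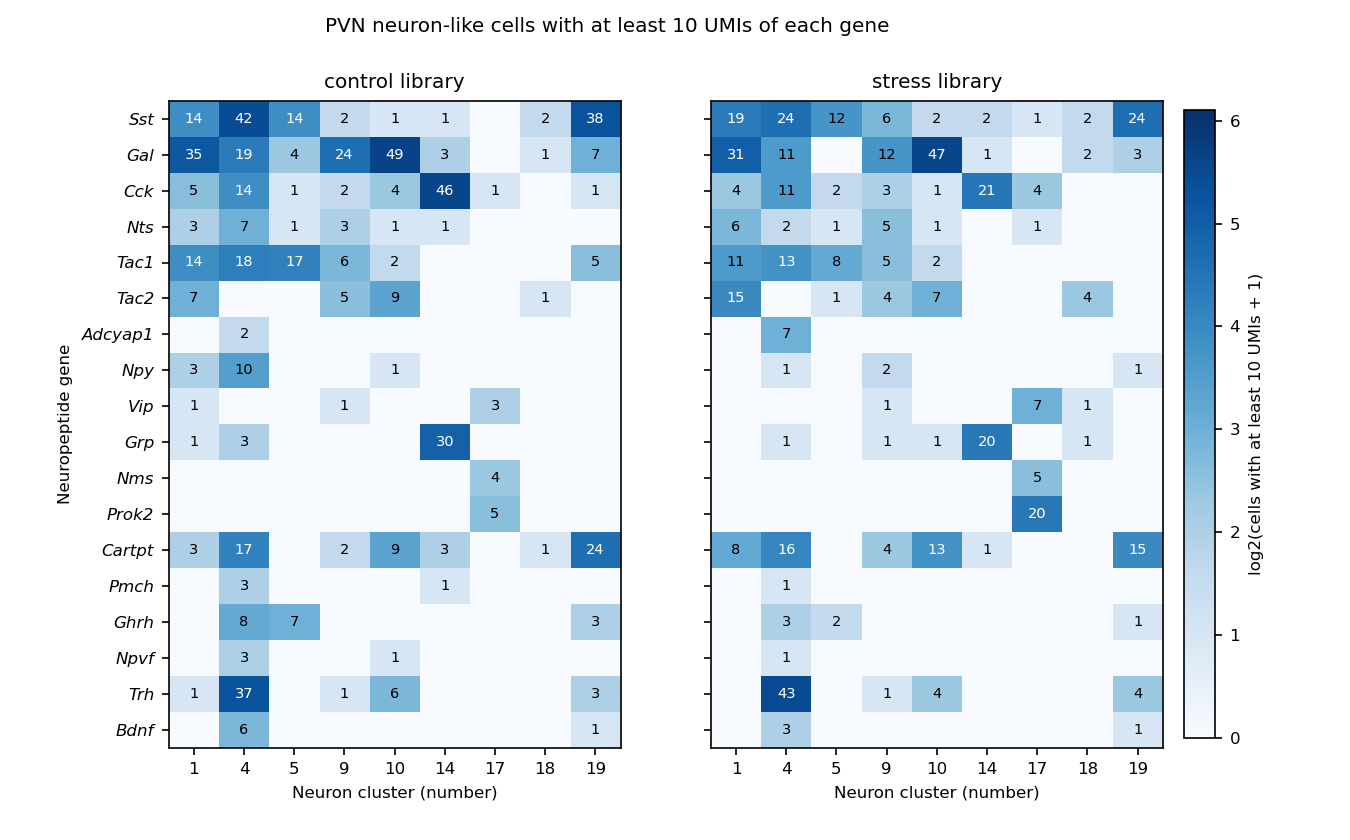
Number of PVN neuron-like cells with at least 10 UMIs of each gene (rows, the 18 genes with 5 or more carriers) in each neuron cluster (columns), in the control library (left) and the stress library (right); the colour is log2 of the number plus 1 and blank squares are 0. Prok2 and Nms carriers lie in cluster 17 alone, while Sst and Gal carriers spread over 8 or more clusters.

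Among regulators of pituitary hormones, somatostatin (Sst, ENSMUSG00000004366, GENCODE chr16:23889573-23890958, minus strand), the peptide that restrains growth hormone release, had 114 control and 92 stress carriers. They held from 10 to 1549 UMIs of it, with a median of 64. Cluster 4 had 42 and 24 of the carriers and cluster 19 had 38 and 24, and in cluster 19 they were 35.5% and 49.0% of all cells. Over all neuron-like cells Sst was at 1209 CPM in control and 727 CPM in stress, a log2 ratio of -0.73 (-0.76 to -0.70). That ratio was not shared by the clusters. In cluster 19, which held 66.0% of control and 52.5% of stress Sst UMIs, the level was 7667 and 7876 CPM, a log2 ratio of 0.04 (-0.00 to 0.08). In cluster 4 it was 1067 and 442 CPM (-1.27), and in cluster 1 it was 189 and 334 CPM (0.82). Cluster 19 itself held 107 cells, 6.7% of neuron-like cells, in the control and 49 cells, 3.1%, in the stress library. With every cluster given equal weight in both libraries, an alternative chosen after the data were seen, the Sst ratio was -0.08.

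Galanin (Gal, ENSMUSG00000024907, chr19:3409915-3414544, minus strand), a peptide of hypothalamic neurons and of pituitary lactotropes, had 142 and 107 carriers. Cluster 10, which expressed the transcription factor genes Hmx2 and Hmx3, held 49 and 47 of them and 49.8% and 57.9% of Gal UMIs. The Gal level in neuron-like cells was 744 CPM in control and 609 CPM in stress, a log2 ratio of -0.29 (-0.33 to -0.25). Cluster 10 was at 4568 and 5031 CPM (0.14, 0.09 to 0.19), while cluster 1 was at 909 and 520 CPM (-0.80) and cluster 9 at 1090 and 607 CPM (-0.84). The cluster richest in galanin transcripts was thus slightly higher in the stress library, and the 2 other GABA clusters with many carriers were lower. After subtraction of the ratio seen in the other PVN cells the overall value changed sign, to 0.24. In those cells Gal was itself at -0.53, and the part of background RNA in that value was not tested.

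Thyrotropin-releasing hormone (Trh, ENSMUSG00000005892, chr6:92242061-92244650, minus strand), which drives thyrotropes, had 48 and 52 carriers, of which 37 and 43 were in cluster 4. Trh was at 220 and 252 CPM (log2 ratio 0.19, 0.13 to 0.25). In cluster 19 it went from 92.2 CPM in control to 390 CPM in stress, with 3 and 4 carriers behind these values. Growth hormone-releasing hormone (Ghrh), the counterpart of somatostatin, had 18 and 6 carriers and was at 63.1 and 16.9 CPM, a ratio of -1.90 in log2 units (-2.09 to -1.72). Its control UMIs were concentrated: the top cell held 339 of 1184 and the 5 top cells 55.3% of them. Without the top cell of each library the ratio was -1.78. In clusters 4, 5 and 19 the Ghrh ratio was -1.23, -1.08 and -2.94, all lower in the stress library.

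The other regulators rested on very few cells. Gonadotropin-releasing hormone (Gnrh1), the driver of gonadotropes, had 1 carrier, a control cell with 1171 of the library's 1192 Gnrh1 UMIs in neuron-like cells. The stress library had 18 UMIs with no carrier. The log2 ratio of -5.97 became -0.43 without the top cell of each library. Npvf, which encodes the RFamide peptides that inhibit reproduction, had 4 and 1 carriers, and its top cells held 1292 of 1834 control UMIs and 605 of 635 stress UMIs. Kiss1, the kisspeptin gene, had 0 control UMIs and 1 stress UMI in neuron-like cells. A count of 0 allows up to 3 UMIs.

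Of the feeding and arousal peptides, CART (Cartpt, ENSMUSG00000021647, chr13:99898489-99901091, minus strand), a satiety peptide also found with releasing hormones, had 59 and 57 carriers. Cluster 19 held 24 and 15 of them, cluster 4 held 17 and 16, and cluster 10 held 9 and 13. The level was 283 and 221 CPM, a log2 ratio of -0.35 (-0.41 to -0.30). A single control cell held 2804 of the 5315 control UMIs and a single stress cell held 994 of 4045. Without these 2 cells the ratio was 0.32, and without the 5 top cells of each library it was -0.06. Thinned to 2000 UMIs it was 0.0036, so the direction of Cartpt over all neuron-like cells depended on a few cells and on depth. In cluster 10 Cartpt was at 202 CPM in control and 1090 CPM in stress (2.43, 2.26 to 2.62), with 9 and 13 carriers.

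Melanin-concentrating hormone (Pmch) and hypocretin (Hcrt, also called orexin) mark neurons of the lateral hypothalamus that promote feeding, sleep or wakefulness. Pmch had 4 and 1 carriers. A single control cell held 18472 of 21740 Pmch UMIs, 27.2% of that cell's 67801 UMIs, and a single stress cell held 4968 of 5535. The cell with most Pmch was in both libraries also the cell with most Cartpt. Hcrt had 2 carriers in each library, and its top cells held 4328 of 4922 control UMIs and 4141 of 6685 stress UMIs. The log2 ratios were -1.93 for Pmch and 0.48 for Hcrt, and without the top cells they were -2.49 and 2.14. In both libraries most UMIs of these genes thus came from 1 cell.

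Neuropeptide Y (Npy, ENSMUSG00000029819, chr6:49822710-49829507, plus strand), a strong feeding signal of arcuate and other neurons, had 14 and 4 carriers. Its level was 27.0 CPM in control and 12.97 CPM in stress, a log2 ratio of -1.06 (-1.29 to -0.83). Cluster 4 held 10 and 1 of the carriers, at 54.5 and 10.3 CPM (-2.40). With all cells thinned to 2000 UMIs the Npy ratio was -0.04. A single stress cell of 9996 UMIs held 67 of the 237 stress Npy UMIs, and thinning gives such a shallow cell more weight. Without the top cell of each library the ratio was -1.32, and without the 5 top cells it was -1.48. Agouti-related peptide (Agrp), made with Npy in arcuate hunger neurons, had 1 carrier, with 33 and 23 UMIs in all. The annotated span of Agrp, chr8:105566698-105637393, is long, and reads from an overlapping gene could count toward it. Qrfp, another RFamide peptide gene, had 3 control carriers, with 117 UMIs of which 88 were in 1 cell, and 6 stress UMIs.

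The remaining feeding and arousal genes stayed under the carrier level in nearly every neuron. Neuromedin U (Nmu) had 99 and 70 UMIs with 1 stress carrier. Neuromedin B (Nmb) had 128 and 86 UMIs, neuropeptide B (Npb) had 117 and 106, neuropeptide W (Npw) had 37 and 17 and galanin-like peptide (Galp) had 5 and 2, all without a carrier.

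The suprachiasmatic peptides kept to their clusters. Prokineticin 2 (Prok2, ENSMUSG00000030069, chr6:99711299-99726392, minus strand), an output signal of the clock, had 5 control and 20 stress carriers, and neuromedin S (Nms) had 4 and 5. All of these lay in cluster 17. Vasoactive intestinal peptide (Vip), which keeps clock neurons in step, had 5 and 9 carriers, of which 3 and 7 were in cluster 17. In all neuron-like cells Prok2 was at 11.6 and 31.9 CPM (1.45, 1.23 to 1.69), Vip at 13.5 and 32.5 CPM (1.26, 1.05 to 1.48) and Nms at 14.1 and 21.2 CPM (0.59, 0.36 to 0.82). The 5 top cells held 94.1% of control and 81.1% of stress Vip UMIs. Without them the Vip ratio was 2.90, on few remaining UMIs. Cluster 17 held 93 cells in the control library, 5.8% of neuron-like cells, and 174 cells, 11.0%, in the stress library. Within it Prok2 was at 228 and 342 CPM (0.59, 0.34 to 0.84), Vip at 273 and 335 CPM (0.30, 0.07 to 0.53) and Nms at 293 and 227 CPM (-0.36, -0.61 to -0.12). The higher Prok2 and Vip levels of the stress library were thus smaller within the cluster, and Nms turned. Whether the dissections took in unequal amounts of the suprachiasmatic nucleus cannot be told apart from the condition.

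Gastrin-releasing peptide (Grp) is known from light-responsive clock neurons, yet 30 of 34 control and 20 of 24 stress carriers were in cluster 14, and none was in cluster 17. Cluster 14 expressed Slc17a6, the nuclear receptor gene Nr2e1 and Ppp1r17. Grp was at 50.7 and 42.3 CPM in all neuron-like cells (-0.26, -0.40 to -0.12). In cluster 14 it was at 475 and 732 CPM (0.62, 0.46 to 0.78). That cluster held 173 control and 85 stress cells.

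Among widely used peptides, cholecystokinin (Cck) had 74 and 46 carriers, of which 46 and 21 were in cluster 14. Its level was 125 and 78.3 CPM (-0.67, -0.77 to -0.57), and in cluster 14 it was 832 and 697 CPM (-0.25, -0.40 to -0.11). The substance P gene Tac1 had 62 and 39 carriers over 6 clusters. Tac1 was at 146 and 87.9 CPM (-0.73, -0.82 to -0.65) and was lower in the stress library in each of the 5 clusters with most of its UMIs, at -0.65 in cluster 1, -0.51 in cluster 4, -1.21 in cluster 5, -0.56 in cluster 9 and -4.94 in cluster 19. The last of these compares 236 control UMIs with 3 stress UMIs. Neurokinin B (Tac2) had 22 and 31 carriers and was at 46.1 and 70.9 CPM (0.62, 0.49 to 0.75). In cluster 10, where it was most abundant, Tac2 was at 327 and 312 CPM (-0.07), and in cluster 1 at 41.0 and 105 CPM (1.36).

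Neurotensin (Nts) had 16 carriers in each library and was at 29.8 and 29.2 CPM (-0.03, -0.20 to 0.14). Pituitary adenylate cyclase-activating peptide (Adcyap1) was at 26.7 and 27.7 CPM (0.05, -0.13 to 0.23). Its UMIs were spread thinly: 11.1% and 10.4% of neuron-like cells held at least 1, and only 2 and 7 cells, all in cluster 4, held 10 or more. The genes Npff (4 and 1 UMIs), Ucn3 (11 and 2) and Rln3 (14 and 1) had no carrier.

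Of the growth-factor-like genes, brain-derived neurotrophic factor (Bdnf) had the same thin spread as Adcyap1. It was at 26.6 and 20.03 CPM (-0.41, -0.61 to -0.21), with a UMI in 10.9% and 10.3% of neuron-like cells and 7 and 4 carriers. Parathyroid hormone-like hormone (Pthlh) had 118 and 58 UMIs and 1 carrier.

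Over the 27 genes with at least 50 UMIs in neuron-like cells, 7 were higher and 20 lower in the stress library, with a median log2 ratio of -0.46. Among all 12937 genes past the same minimum 55.5% were higher, and the median was 0.02. Vip and Prok2 were at least 2-fold higher, against 0.124% of all genes. With equal cluster weights they were at 0.37 and 0.59, and with the ratio of other PVN cells subtracted Prok2 was at -0.52. The Prok2 ratio subtracted rested on 1 control and 5 stress UMIs in the other cells, under the minimum of 20 UMIs, so it cannot decide the direction. Npy, Pmch, Ghrh, Gnrh1, Qrfp, Npvf and Npw were at least 2-fold lower, against 0.394% of all genes. Gnrh1, with 1192 and 18 UMIs, and Qrfp, with 117 and 6, reached the minimum of 50 UMIs only through the control library. Without the top cell of each library Gnrh1 (-0.43) and Npw (-0.98) were less than 2-fold lower. Thinned to 2000 UMIs Npy (-0.04) and Npw (-0.78) were, and with the ratio of other PVN cells subtracted Npy (-0.93), Pmch (-0.55) and Npvf (-0.04) were, while Npw turned to 3.09. For Npw the other cells held 9 and 0 UMIs, so that value depends on the 0.5 UMI added. Pmch and Npvf were lower in the other cells too, at -1.39 and -1.45. Single Pmch UMIs are read below as background, which would follow the level in neurons, so subtraction cannot decide for Pmch. The part of background in the Npvf value was not tested. Under every other alternative both genes stayed at least 2-fold lower. Of the 7 genes, Ghrh stayed at least 2-fold lower under the 10 alternatives run. Qrfp values did too, but without its top cell in each library Qrfp rested on 29 and 4 UMIs. Its 5 top cells held 98.3% of control and 100% of stress UMIs, and the other PVN cells had 11 and 1. Leaving out the 5 top cells or subtracting other cells thus could not test Qrfp. The shares over all genes are not matched for the number of cells that carry a gene.

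**Figure D2:**
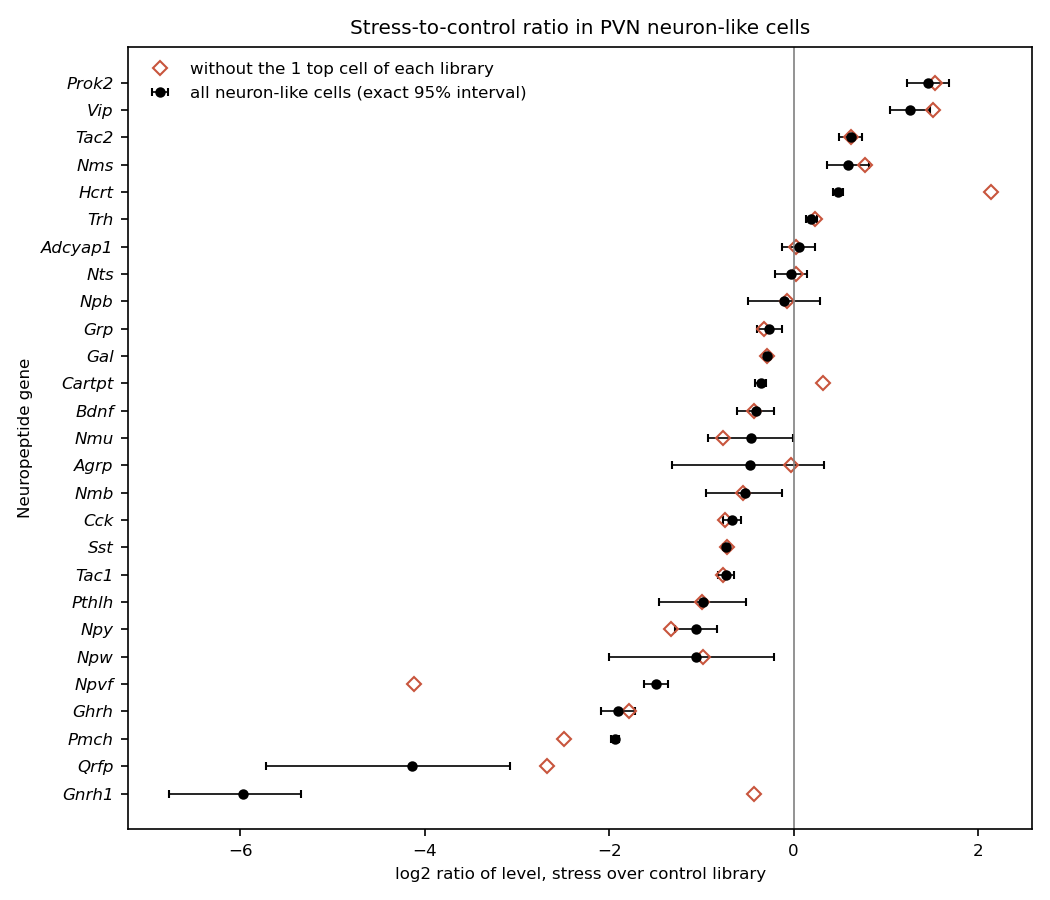
Log2 ratio of the level in PVN neuron-like cells, stress over control library, for the 27 genes with at least 50 UMIs; black points are all cells with exact 95% intervals for counting error, and open diamonds leave out the 1 cell with most UMIs of the gene from each library. Gnrh1 moves from -5.97 to -0.43 and Cartpt from -0.35 to 0.32, whereas Sst and Gal stay at -0.73 and -0.29.

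Genes for the machinery around the peptides did not show this pattern. Of 46 peptide receptor genes 45 were in the gene table and 34 had at least 50 UMIs in neuron-like cells, of which 22 were higher and 12 lower, with a median of 0.07 and none past 2-fold. All 13 genes for peptide processing and granules passed the minimum, with 9 higher, 4 lower, a median of 0.03 and none past 2-fold. Several receptors were highest outside neurons in the PVN. The neurotensin receptor Ntsr2 was at 2602 and 2551 CPM in astrocyte-like cells, the PACAP receptor Adcyap1r1 at 273 and 299 CPM in the same class, and the receptor Pth1r, which binds the Pthlh product, at 219 and 231 CPM in pericyte-like cells.

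Peptide transcripts also appeared in PVN cells that are not neurons, and for some genes at the share seen in neurons. At 2000 UMIs per cell, a Pmch UMI was found in 19.9% of control and 8.16% of stress neuron-like cells, and in 25.2% and 10.1% of oligodendrocyte-like cells, which should lack it. The corresponding shares for Hcrt were 6.40% and 9.62% in neuron-like and 6.29% and 9.72% in oligodendrocyte-like cells. Single Pmch or Hcrt UMIs are therefore read as background. Before thinning, a Pmch UMI was in 62.8% and 30.4% of neuron-like cells, whose median depth was 10802 and 10719 UMIs against 4987 and 5061 in oligodendrocyte-like cells.

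Sst had 16.4% and 16.8% of thinned neuron-like cells with a UMI against 8.44% and 14.8% of oligodendrocyte-like cells, so much of its low-level detection was at background too. Gal stood further above it, at 18.6% and 15.3% against 6.87% and 5.79%. Cck had 9.35% and 5.57% against 0.858% and 0.748%. Adcyap1 had 3.89% and 4.56% against 0.286% and 0.187%, and Bdnf had 3.95% and 3.04% against 0.286% and 0 of 535 cells, which allows a share of up to 0.561%.

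**Figure D3:**
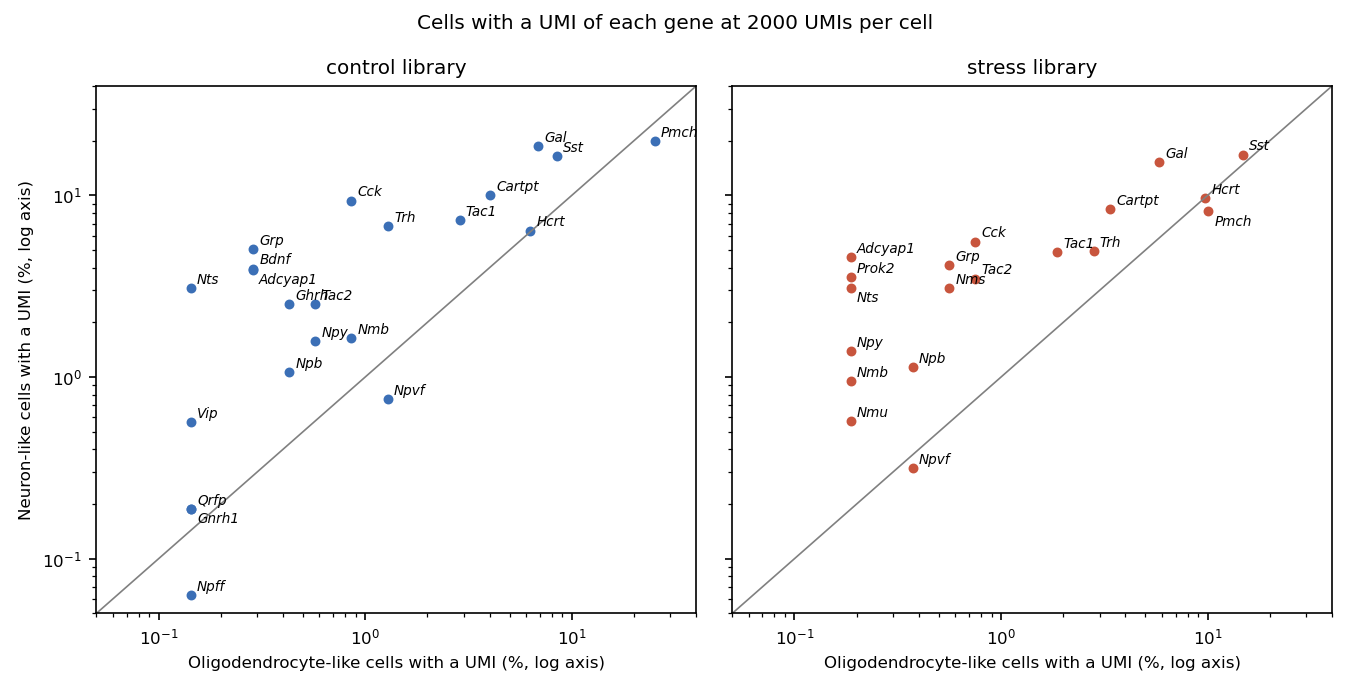
Percent of cells with at least 1 UMI of each gene after thinning to 2000 UMIs per cell, in oligodendrocyte-like cells (horizontal, log axis) and neuron-like cells (vertical, log axis), for the control library (left) and the stress library (right); the line marks equal shares and genes at 0 in either class are not drawn. Pmch and Hcrt lie on or near the line, and Adcyap1, Cck, Grp and Nts lie well above it.

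Of the 27 genes with at least 50 UMIs, 21 in the control and 20 in the stress library had at least 90% of their PVN UMIs in neuron-like cells. These cells held 63.0% and 64.0% of the UMIs of all genes, but the share of all genes past 90% is not given. For Pmch and Hcrt most neuronal UMIs lay in 1 cell of each library. A few of the 27 genes had a second home. Nmb had only 22.8% and 20.6% of its UMIs in neuron-like cells and was at 155 and 146 CPM in ependymal-like cells of the ventricle wall, and at 88.8 and 77.9 CPM in tanycyte-like cells. Npy was at 124 and 130 CPM in ependymal-like cells, where 1 control cell was a carrier. Ghrh was at 46.3 and 38.9 CPM in the same class. Tac1 was at 125 and 137 CPM in oligodendrocyte precursor-like cells, beside 146 and 87.9 CPM in neuron-like cells, with no carrier there. Nts was at 82.0 and 36.8 CPM in pericyte-like cells, from 49 and 21 UMIs with 1 control carrier.

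Peptides were shared between cells in a limited set of pairs, counted here over both libraries. Sst and Cartpt were carried together by 38 cells, the most of any pair among the 32 genes, which is 18.4% of 206 Sst and 32.8% of 116 Cartpt carriers. Cluster 19 held 32 of these 38 cells. Cartpt and Trh were shared by 28 cells, 24.1% and 28.0% of their carriers, of which 18 were in cluster 4. Sst and Gal, the genes with most carriers, met in 8 cells, 3.9% of Sst and 3.2% of Gal carriers. Cells with a pair were deeper in several cases, for instance 17126 UMIs at the median for Cartpt with Trh against 14716 for cells with 1 of them, and the part of doublets left in the data was not tested.

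In cluster 10, Gal met Tac2 in 16 of the 23 cells that carried both, and these 23 cells were 43.4% of Tac2 and 9.2% of Gal carriers. In cluster 14, Cck met Grp in 16 of 18 cells, 31.0% of Grp carriers, and Cck met the dynorphin precursor Pdyn in 27 of 28 cells, 23.3% of Cck and 34.1% of Pdyn carriers. Of these 28 cells 23 were in the control library, 31.1% of its Cck carriers, and 5 in the stress library, 10.9%. In cluster 17, vasopressin (Avp) was carried by 20 of 25 Prok2 carriers and by 7 of 9 Nms carriers, while Prok2 and Nms met in 3 cells. Outside the neurons, 1 of 1919 control and 4 of 1879 stress cells held 10 or more Avp UMIs.

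In cluster 5, Tac1 met Ghrh in 9 cells, 37.5% of 24 Ghrh carriers. Another 7 Ghrh carriers, all in cluster 4, also carried Trh. Sst was carried by 10 of 18 Npy carriers and Tac1 by 8 of 18. Among rare genes, Cartpt was carried by 5 of 5 Pmch carriers, Pdyn by 4 of 4 Hcrt carriers, Gal by 4 of 5 Npvf carriers and Trh by 5 of 11 Bdnf carriers. The enkephalin precursor Penk was the most frequent partner of Gal, in 39 cells, 15.7% of Gal and 26.5% of Penk carriers.

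**Figure D4:**
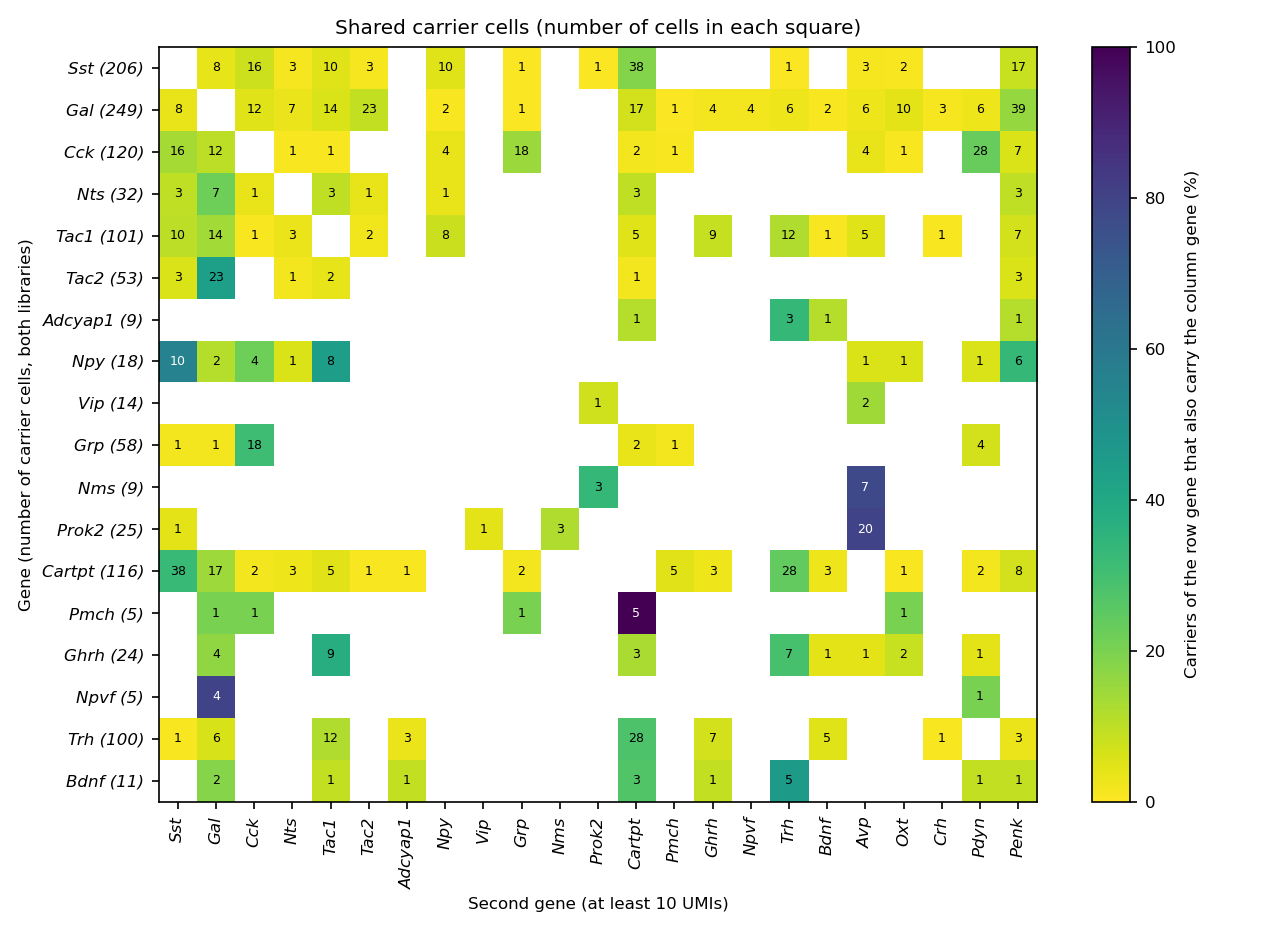
Shared carriers over both PVN libraries: each square gives the number of cells with at least 10 UMIs of the row gene and of the column gene, and its colour the percent of row-gene carriers (their number in brackets) that also carry the column gene; blank squares are 0. Among the 18 genes with 5 or more carriers, which form the rows, the strongest colours are Pmch with Cartpt (5 of 5), Prok2 with Avp (20 of 25), Npvf with Gal (4 of 5) and Nms with Avp (7 of 9).

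The carriers also differed in their fast transmitter, judged by at least 3 UMIs of Slc17a6 or, summed, of the GABA genes Slc32a1, Gad1 and Gad2. Of all 3173 neuron-like cells 2014 were GABA only, 530 Slc17a6 only, 91 both and 538 neither. All 53 Tac2 carriers, 9 of 9 Nms, 23 of 25 Prok2, 13 of 14 Vip and 203 of 249 Gal carriers were GABA only. Slc17a6 only was the largest group for Grp (32 of 58) and Cck (51 of 120) carriers and for 7 of 11 Bdnf carriers. Sst carriers were mixed, with 85 GABA only, 44 Slc17a6 only, 13 both and 64 neither, and 45 of 100 Trh carriers showed neither.

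In the pituitary, Gal was at 98.3 and 82.3 CPM in lactotrope-like cells, the prolactin-producing class, with a UMI in 26.6% of cells in each library and 9 and 6 carriers. Nmb was at 159 and 228 CPM in corticotrope-like cells, the ACTH-producing class, with 9 and 7 carriers (0.52, 0.30 to 0.74). In the same class Cartpt was at 50.2 and 154 CPM with 2 and 6 carriers (1.61, 1.27 to 1.98), and Npb at 35.5 and 60.9 CPM (0.77, 0.32 to 1.25). Of the 3 genes with at least 50 UMIs in corticotrope-like cells, 1 was at least 2-fold higher in the stress library, against 0.61% of all genes.

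Cartpt was also higher in somatotrope-like cells of the stress library, at 6.37 and 16.3 CPM (1.35, 1.13 to 1.58), with a UMI in 5.4% of control and 11.1% of stress cells. Its log2 ratio was 1.28 in lactotrope-like cells, and the part of background RNA in the pituitary Cartpt levels was not tested. Tac1 in somatotrope-like cells had 3 control UMIs and 54 stress UMIs, of which 24 were in 1 cell. Cartpt and Tac1 were 2 of the 6 genes measured there that were at least 2-fold higher, against 0.282% of all genes. Tac1 reached the UMI minimum only through the stress library, where it was high. Its place among the higher genes thus cannot be weighed against the share of all genes. Cck, with 47 and 15 UMIs (-1.68), was at least 2-fold lower, against 0.737% of all genes. Of the 6 genes 3 were higher and 3 lower, with a median of -0.06, while 9959 of 12075 genes were lower in this class. Bdnf was at 23.5 and 21.1 CPM in somatotrope-like cells with no carrier. Gonadotrope-like cells held Grp at 33.9 and 27.6 CPM and Nmu at 26.7 and 27.6 CPM, and pituitary stem-like cells held Tac1 at 24.9 and 44.0 CPM. Cck in thyrotrope-like cells had 10 and 69 UMIs, found in 4 of 73 control and 5 of 102 stress cells. The genes Nts, Nms, Pmch, Kiss1, Qrfp and Galp had 0 UMIs in both pituitary libraries, and Sst had 4 and 0.

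In the adrenal, chromaffin-like cells, the catecholamine cells of the medulla, were few, 25 in the control and 41 in the stress library. Npy was at 6646 and 8007 CPM in them (0.27, 0.17 to 0.37), with 14 and 28 carriers. Gal was at 1935 and 1909 CPM (-0.02, -0.21 to 0.17), with 10 and 18 carriers. Both genes were thus abundant in these cells of either pool. Cartpt had 9 and 54 UMIs there, in 2 and 8 cells. Sst had 0 control UMIs and 58 stress UMIs, of which 57 were in 1 cell, and was at least 9.94-fold higher in the stress library when 3 UMIs are allowed over the control class. In adrenal cortex-like cells Npy had 40 and 158 UMIs (1.79 and 7.11 CPM), with 1 control carrier. Npy was also higher in the other adrenal classes of the stress library, at 2.51 and 11.4 CPM in macrophage-like cells (2.07, 0.83 to 3.89) and at 4.24 and 11.6 CPM in endothelial-like cells, so the level in cortex-like cells did not stand above theirs. No macrophage-like or cortex-like stress cell held more than 2 Npy UMIs. In cortex-like cells Nmb had 190 and 273 UMIs (8.52 and 12.3 CPM). The stress library also held more chromaffin-like cells, and the part of their free RNA in the cortical Npy level was not tested.

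**Figure D5:**
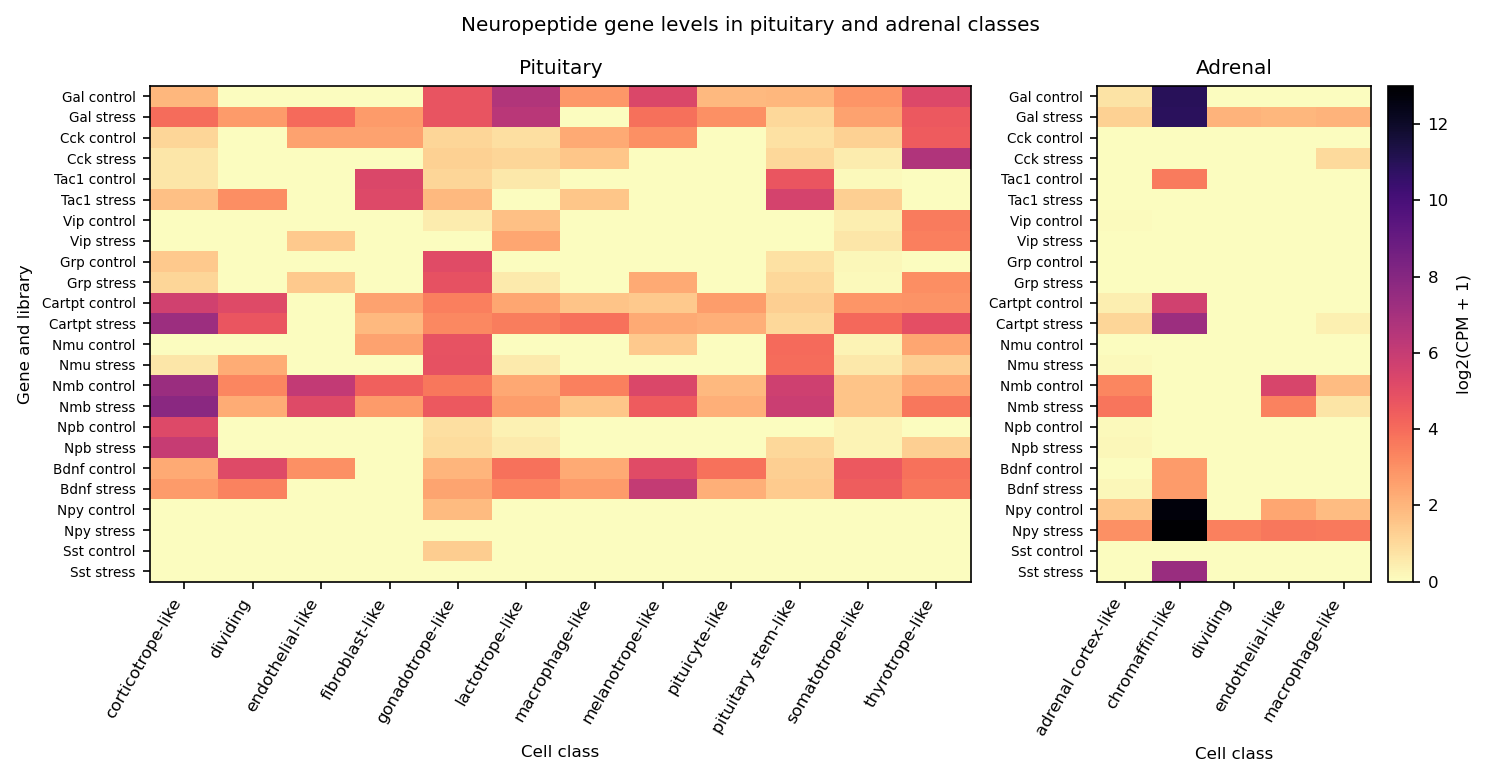
Level of 12 of the genes, as log2(CPM + 1), in pituitary classes (left) and adrenal classes (right), with a row for each gene and library. Npy and Gal in chromaffin-like cells are the darkest squares, and Nmb and Cartpt are darkest in corticotrope-like cells of the pituitary.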

How the data were processed

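The deposited matrices held UMI counts per gene and barcode for 6 libraries, which the authors made with Cell Ranger 2.1.1 on mm10, per the submitters' processing notes; Scanpy is named there without a role. The sources used here name no annotation, strand or cell calling settings. The 32 genes, the receptor, processing and marker lists and the naming rules were chosen with earlier results of these data known.

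Barcodes under 200 genes or above 25% mitochondrial UMIs were left out. Doublets were scored against simulated ones and the highest scores left out at 0.8% per 1000 cells, so their number was set by this rate (101 to 105 in the PVN). Total UMIs (control, then stress) were 31110127 and 29916957 for PVN libraries, 50024887 and 53244403 for pituitary libraries, and 29059956 and 33836656 for adrenal libraries. Cells of each tissue were clustered jointly with scanpy 1.11.5 (2000 variable genes, 30 components, 15 neighbours, Leiden resolution 1) and named from at least 3 markers. Rules that left some clusters unnamed were set after the clusters were seen.

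UMIs were summed per class and library, scaled to CPM, and compared as log2 ratios with 0.5 UMI added and exact Poisson-based intervals. The ratio calculation was tested on simulated data. Ratios needed at least 20 UMIs over both libraries, and medians and counts of genes at least 50. All 32 genes are named. Values are given in full for genes with at least 5 carriers or 100 UMIs in a pituitary or adrenal class, and pairs with at least 3 shared cells could be named. Coordinates are from GENCODE vM21 on GRCm38 and promoters from RefSeq. Alternatives were no cell filter, doublets kept, other neuron definitions and resolutions, scaling without peptide UMIs, thinning, other carrier minimums, the top cell left out and the ratio of other PVN cells subtracted. Equal cluster weights and leaving out the 5 top cells were chosen after the data were seen.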

Additional observations from a re-analysis of the deposited data

Results flagged for a closer look

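Among named classes in which a gene had at least 50 UMIs over both libraries, and with intervals off 0 in both places, 14 ratios (log2, stress over control) in a pituitary or adrenal class went the opposite way to the same gene in PVN neuron-like cells. Each comparison holds 1 pool per condition, and the difference between the classes was not tested. Some ratios reached the minimum of 50 UMIs only through the stress library, where the gene was high. These were Sst (0 and 58 UMIs) and Cartpt (9 and 54) in chromaffin-like, Cck in thyrotrope-like and Tac1 in somatotrope-like cells. Their direction was set by that minimum and cannot be weighed. In every one of the 14 the gene was lower in PVN neuron-like cells and higher in the other class. Of the 27 genes measured in PVN neuron-like cells 20 were lower, and some genes give more than 1 of the 14 ratios. The shared direction is thus not a separate result. The share of all genes with opposite ratios between these classes was not counted. Cartpt was at 1.61 in corticotrope-like, 1.28 in lactotrope-like, 1.35 in somatotrope-like and 1.56 in chromaffin-like cells, against -0.35 in PVN neuron-like cells, a value that was 0.32 without the top cell and -0.06 without the 5 top cells of each library. Nmb was at 0.52 in corticotrope-like, 0.98 in gonadotrope-like and 0.53 in adrenal cortex-like cells, against -0.53. Npy was at 0.27 in chromaffin-like and 1.97 in adrenal cortex-like cells, against -1.06. Npy was also at 2.07 in adrenal macrophage-like cells, on 5 and 36 UMIs. Tac1 was at 0.81 in pituitary stem-like and 3.90 in somatotrope-like cells, against -0.73. The somatotrope-like value rested on very few control UMIs and on a stress sum with many UMIs in 1 cell. Cck was at 2.17 in thyrotrope-like cells, against -0.67, with its UMIs in few cells of each library. Bdnf was at 0.96 in melanotrope-like cells, against -0.41. Sst was at 5.91 in chromaffin-like cells, against -0.73, but this fitted value depends on the 0.5 UMI added to a control sum of 0 and rests on 1 stress cell.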

How the results depend on the processing

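No paired analysis was possible because each group is 1 library and the labels give no replicate numbers. The median log2 ratio of the 27 genes stayed negative under the 10 alternatives, and the 1 value that moved was -0.30 with equal cluster weights. Among genes whose interval excluded 0, ratios changed sign for Gal (0.24), Nms (-1.10), Prok2 (-0.52) and Npw (3.09) with the ratio of other PVN cells subtracted, for Grp (0.46) and Nms (-0.31) with equal cluster weights, for Cartpt (0.0036) and Hcrt (-0.34) with cells thinned to 2000 UMIs, and for Cartpt (0.32) without the top cell. In the other PVN cells Nms had 3 and 10 UMIs, Prok2 1 and 5 and Npw 9 and 0. Their subtracted ratios thus fell under the minimum of 20 UMIs, and these sign changes cannot be read. Cells with at least 1 of the genes were 42.4% of control and 36.1% of stress neuron-like cells at 5 or more UMIs, 21.2% and 16.9% at 20 or more, and 11.1% and 8.67% when thinned. Carriers of 2 or more genes were 37.5% and 31.8% of carriers at 5 or more UMIs, 23.4% and 19.9% at 20 or more, and 4.52% and 7.30% when thinned. Of the 27 genes, the number with at least 90% of UMIs in neuron-like cells was 17 and 18 with doublets kept. With no cell filter, doublets kept, neurons by marker UMIs, resolution 2 or scaling without peptide UMIs, all 27 ratios stayed within their counting intervals. Beside the sign changes, 12 of 27 left them when thinned, 7 without the top cell, 16 without the 5 top cells, 18 with other PVN cells subtracted and 12 with equal cluster weights. Of 24 pituitary and adrenal levels 6 moved with doublets kept and 13 when thinned. Depth limits the rare genes: 5 of the 32 had under 20 UMIs in neuron-like cells, so no ratio is given for them.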
